A study of Homo sapiens with 6 samples.

Results

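The dolichol and N-glycosylation genes are a list of 43 human genes whose products make dolichol, build an oligosaccharide on it, transfer that oligosaccharide to nascent proteins and begin to trim it. All 43 were among the 14930 genes of the expression matrix of OVCAR8 cells, and 40 of them had a value of 10 or more in at least 2 of the 6 samples, as did 9671 genes in all. The 3 that fell short were ALG13, listed at 4 to 10, ALG10, listed at 3 to 5, and ALG10B, listed at 4 to 8, and they were not tested. Among the 40, DPM3 passed through its DZNep and shEZH2 samples, its control values being 9 and 7, and SRD5A3 passed through its control and shEZH2 samples, its DZNep values being 4 and 6.

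N-glycosylation takes place in the endoplasmic reticulum (ER). Dolichol, a long polyisoprenoid alcohol, is phosphorylated and used as a membrane anchor, on which sugars are added one by one, at the cytosolic face and then, after the lipid has been flipped, in the lumen. The oligosaccharyltransferase moves the finished glycan to asparagine residues of proteins entering the ER, and glucosidases and mannosidases then trim it before Golgi enzymes add branches. SRD5A3 belongs to the steroid 5-alpha-reductase family and acts near the start of this route, where dolichol is made from polyprenol. Inherited defects in many of these genes cause congenital disorders of glycosylation.

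RNA was sequenced from OVCAR8, a line labelled as derived from high grade serous ovarian cancer, after 72 h in 3 groups of 2 samples. Control cells received DMSO. The DZNep group received 3-deazaneplanocin A, an inhibitor of S-adenosylhomocysteine hydrolase that depletes EZH2, at a dose labelled 5 mM, whereas the methods of the study give this figure in μM. The shEZH2 group is labelled as doxycycline-induced silencing of EZH2, the catalytic subunit of Polycomb repressive complex PRC2, at a doxycycline dose labelled 1 mg/mL, which the methods give in μg/mL. The methods name a stable line carrying an inducible hairpin, and do not say whether the control cells carried it or received doxycycline, or whether the line was 1 clone. No group with doxycycline alone or with an unrelated hairpin was analysed here, so EZH2 silencing, the hairpin line and doxycycline cannot be told apart. The same holds for the DZNep group with regard to EZH2 loss and other effects of the compound. The comparison of each treated group with control uses the same 2 control samples.

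EZH2 had values of 36 and 42 in control, 26 and 26 with DZNep, and 18 and 18 with shEZH2. Both treated groups lay below control, by 0.63 on the log2 scale with DZNep (SE 0.18, adjusted p = 0.026) and by 1.12 with shEZH2 (SE 0.18, adjusted p = 0.016). The DZNep call was lost without control replicate 2 (adjusted p = 0.083), without DZNep replicate 2 (0.074) and without either shEZH2 replicate (0.091 and 0.092), and the shEZH2 call was lost without either shEZH2 replicate (0.21 and 0.17). The line was checked against its markers. The keratins KRT8, KRT18 and KRT7 were at 350 or more in every sample and the Mullerian factor PAX8 was at 10 to 19, whereas EPCAM was at 5 to 12, CDH1 at 0 to 8 and WT1 at 1 to 2. KRT19, MUC16 and SOX17 were not analysed here. Some of these markers moved with DZNep in limma. KRT8 and KRT18 were higher by 1.77 and 1.66 (adjusted p = 0.00085 and 0.0013), whereas KRT7 was not called (-0.08, adjusted p = 0.78). PAX8 was lower, with a log2 fold change of -0.68 (adjusted p = 0.028). Mesothelin, MSLN, had values of 176 and 150 in control, 45 and 36 with DZNep and 102 and 95 with shEZH2. It was lower with DZNep, with a log2 fold change of -2.06 (adjusted p = 0.00048). Their part in the results was not tested. Among markers of other cell types that were listed, VWF and LUM were at 0 to 2 and COL1A1 at 9 to 16, and the remaining ones, all leukocyte markers included, were not analysed here.

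The deposited values are whole numbers that sum to between 999956 and 1000068 in each sample, so they are scaled values and not reads, and the depth of the libraries is unknown. Differences are given as log2 fold changes of the value after TMM scaling, a trimmed-mean correction for composition (factors 0.92 to 1.12), with 1 added before the logarithm. They therefore understate the change of genes with low values. Each test is from limma with Benjamini-Hochberg adjustment over all 9671 genes, and a gene is called higher or lower at an adjusted p under 0.05. Nothing in the sources says that the 2 samples of a group were separate cultures, so the p-values measure the spread between these samples only. In bulk RNA, fewer cells expressing a gene and less RNA per cell cannot be told apart.

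With DZNep, 8 of the 40 tested members were called higher and 7 lower than control. Among all genes tested, 22.4% were called higher and 20.4% lower, against 20% and 17.5% of the members, so the number of calls among them was near the background. The median log2 fold change of the members was 0.16, beside 0.02 for all genes. Under the values as deposited, without TMM scaling, 14 members were called higher and 4 lower, beside 25.7% and 15.6% of all genes. With shEZH2, none of the 40 was called higher by limma and 2 were called lower, SRD5A3 and ALG8, beside 3.91% and 4.53% of all genes. At an unadjusted p under 0.05, 3 members were higher with shEZH2 (DOLPP1, ALG2 and DPM3) and 5 lower, beside 14.9% and 13.3% of all genes. After TMM scaling, 14 of the 40 members lay above control in both DZNep samples without overlap and 11 below (34.8% and 30.8% of all genes), and 9 and 10 did so with shEZH2 (33.5% and 31.6%). The 2 members called with shEZH2 make up 5% of the list, which is again near the background, and the median log2 fold change was 0.05 beside -0.01 for all genes. At an unadjusted p under 0.05 with an absolute log2 fold change above 1, 5 members passed as higher with DZNep (10.5% of all genes) and 3 as lower (11.8%), and no member passed as higher with shEZH2 (2.27% of all genes) and 1, SRD5A3, passed as lower (3.03%). At an unadjusted p under 0.05, 12 members were higher and 9 lower with DZNep, beside 26.5% and 24.6% of all genes. By step, with DZNep, 3 of 5 tested genes of cytosolic assembly were called higher and none lower (0 at an unadjusted p under 0.05), whereas 4 of 10 genes of the oligosaccharyltransferase were called lower and none higher (1 at an unadjusted p under 0.05). With the values as deposited, TUSC3 was the 1 oligosaccharyltransferase gene still called lower. Whether the steps differed from each other was not tested.

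**Figure D1:**
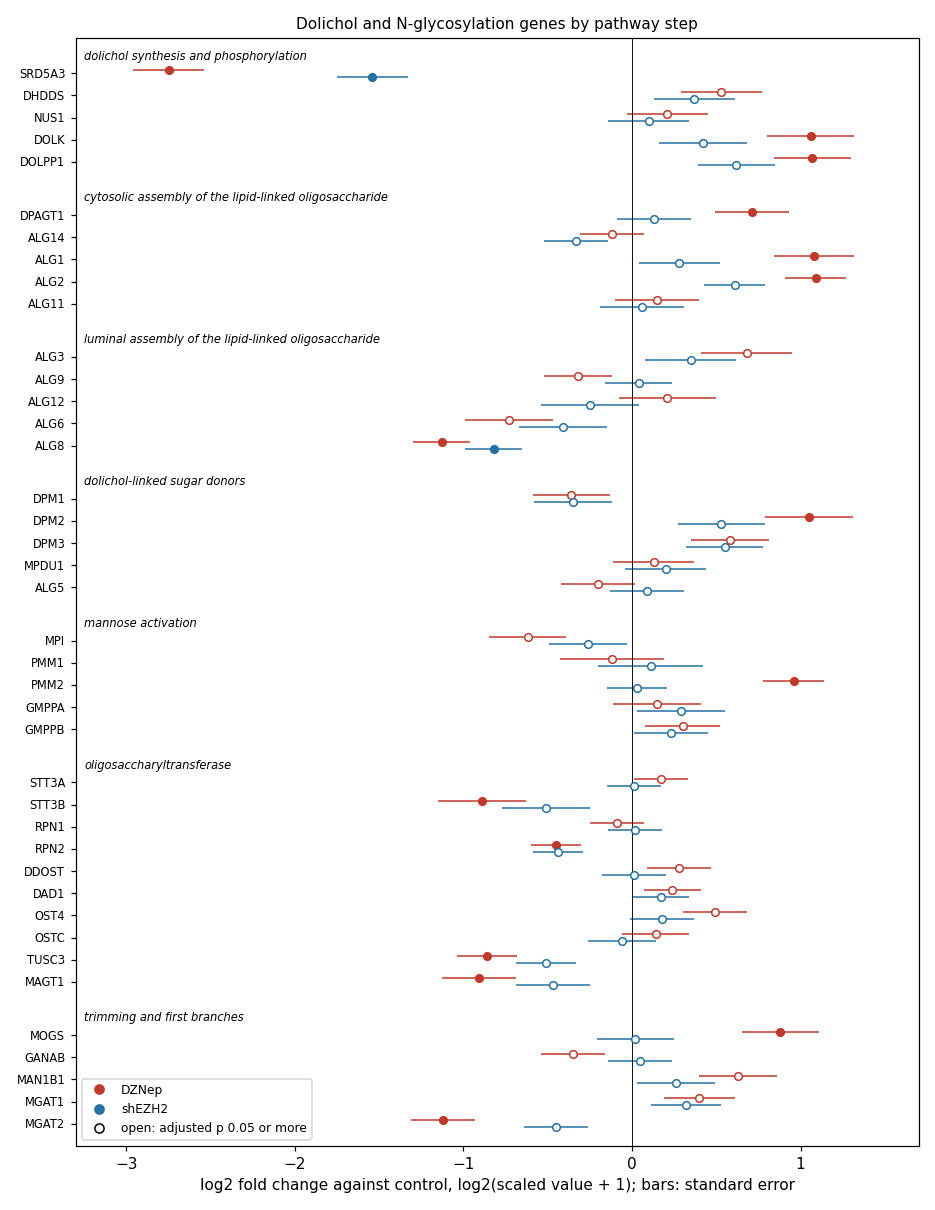
Log2 fold change against control of the 40 tested genes, grouped by pathway step, with DZNep in red and shEZH2 in blue. Points are fitted values, bars are standard errors, and filled points had an adjusted p under 0.05 in limma. SRD5A3 lies farthest to the left, at -2.75 with DZNep and -1.54 with shEZH2, and the filled points of the oligosaccharyltransferase all lie left of 0.

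SRD5A3 had the lowest log2 fold change of the list in both comparisons. In control it was at 39 and 35, with DZNep at 4 and 6, and with shEZH2 at 13 and 12. The 3 groups did not overlap, with both DZNep samples lowest and both shEZH2 samples between them and control. SRD5A3 fell with DZNep by 2.75 on the log2 scale, or 6.73-fold (SE 0.21, adjusted p = 1.0e-04 from limma), and with shEZH2 by 1.54, or 2.91-fold (SE 0.21, adjusted p = 0.010). Of the 9671 genes, it ranked 67 from the lowest log2 fold change with shEZH2. Because the DZNep values are small whole numbers, rounding alone allows a log2 ratio of mean deposited values between -3.06 and -2.73. The DZNep call held in each of the 18 alternative settings tried, between -2.90 and -2.13, whereas the shEZH2 call was lost without shEZH2 replicate 1 (adjusted p = 0.091) and without shEZH2 replicate 2 (0.10).

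SRD5A3 lies on chromosome 4 of GRCh38 at chr4:55346213-55373100 on the plus strand (GENCODE). ALG8, the other member that fell in both treated groups, lies at chr11:78095244-78139660 on the minus strand. PMM2, which rose with DZNep and was lower with shEZH2 than with DZNep, lies at chr16:8788823-8862534 on the plus strand. The 250 bases before the RefSeq start of each (GRCh38.p14) are printed here because these are the members with a call beyond DZNep against control. They cover chr4:55345992-55346241 (plus), chr11:78139627-78139876 (minus) and chr16:8797589-8797838 (plus). Each is written 5′ to 3′ on the strand of the gene, and capitals mark the letters CACGTG (the E-box) or CCGGAAG (an ETS-type site, which reads CTTCCGG on the opposite strand).
SRD5A3: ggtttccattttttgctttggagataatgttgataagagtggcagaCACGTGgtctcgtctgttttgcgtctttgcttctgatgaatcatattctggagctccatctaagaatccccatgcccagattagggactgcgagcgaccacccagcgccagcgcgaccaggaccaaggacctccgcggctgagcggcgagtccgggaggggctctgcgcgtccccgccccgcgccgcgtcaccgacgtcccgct
ALG8: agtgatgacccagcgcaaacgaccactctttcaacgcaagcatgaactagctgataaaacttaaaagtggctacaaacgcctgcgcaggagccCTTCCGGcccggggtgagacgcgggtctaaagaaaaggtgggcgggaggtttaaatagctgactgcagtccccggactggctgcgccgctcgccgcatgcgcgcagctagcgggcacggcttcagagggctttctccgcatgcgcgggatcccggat
PMM2: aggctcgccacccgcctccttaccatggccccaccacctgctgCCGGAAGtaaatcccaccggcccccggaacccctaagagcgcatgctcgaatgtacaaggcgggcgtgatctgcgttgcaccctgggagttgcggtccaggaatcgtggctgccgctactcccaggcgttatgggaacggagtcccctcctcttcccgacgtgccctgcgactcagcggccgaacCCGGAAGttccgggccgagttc
The 3 windows have GC contents of 59.6%, 60.0% and 65.6%. The capitals begin 204 bases before the start in SRD5A3, 157 in ALG8, and 207 and 22 in PMM2. By the GENCODE annotation, exons of some transcripts of each gene reach into the end of its own window, and the windows of ALG8 and PMM2 also overlap an exon of a neighbouring gene on the opposite strand, KCTD21-AS1 and TMEM186.

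The same windows were searched on both strands for 6 motifs in the 38 members that had an entry in the RefSeq promoter table. The E-box was in 7 of 38 (18.4%), against 7.37% of all 22199 promoter windows of the same length. These windows are those of protein-coding genes and count every entry of a gene, whereas each member was counted by 1 entry. The genes were SRD5A3, DHDDS, NUS1, DOLK, ALG1, GMPPA and DDOST, which include 4 of the 5 genes of dolichol synthesis and phosphorylation. These E-box genes did not move together, since with DZNep SRD5A3 was called lower, DOLK and ALG1 higher, and the other 4 were not called. CCGGAAG was in 9 (23.7%, against 10.7%) and the CCAAT box (CCAAT) in 16 (42.1%, against 32.7%). The ER stress response element, which contains the CCAAT box, was in 1 member, ALG12 (0.0991% of all windows). The ATF4 amino acid response element TGATGNAAT (0.577% of all windows) and the sterol regulatory element TCACNCCAC (0.883%) were in none of the 38. These matches describe letters in a short window and were not tested as binding sites.

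The other genes of dolichol synthesis and phosphorylation moved opposite to SRD5A3 with DZNep or were not called. DHDDS and NUS1 form the cis-prenyltransferase that builds the polyprenol chain, DOLK phosphorylates dolichol, and DOLPP1 removes phosphate from spent dolichyl diphosphate so that the carrier can be used again. DOLK values were 10 and 7 in control, 20 and 19 with DZNep, and 11 and 13 with shEZH2. DOLPP1 values were 18 and 17, then 44 and 36, then 31 and 26. Both genes were above control in both DZNep samples. DOLK rose with DZNep by 1.06 (SE 0.26, adjusted p = 0.013 from limma) and DOLPP1 by 1.07 (SE 0.23, adjusted p = 0.0074). The shEZH2 values of DOLPP1 were also both above control, with a log2 fold change of 0.62 that did not pass (adjusted p = 0.12), and those of DOLK were at 0.42 (adjusted p = 0.32). The DOLK call was lost without control replicate 2 (adjusted p = 0.056) and without DZNep replicate 1 (0.052). For DHDDS, the values of 26 and 22 with DZNep and 21 and 21 with shEZH2 were above the control values of 17 and 14, but neither comparison passed (log2 fold changes 0.53 and 0.37, adjusted p = 0.11 and 0.34). NUS1 values overlapped between groups, from 26 to 50.

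**Figure D2:**
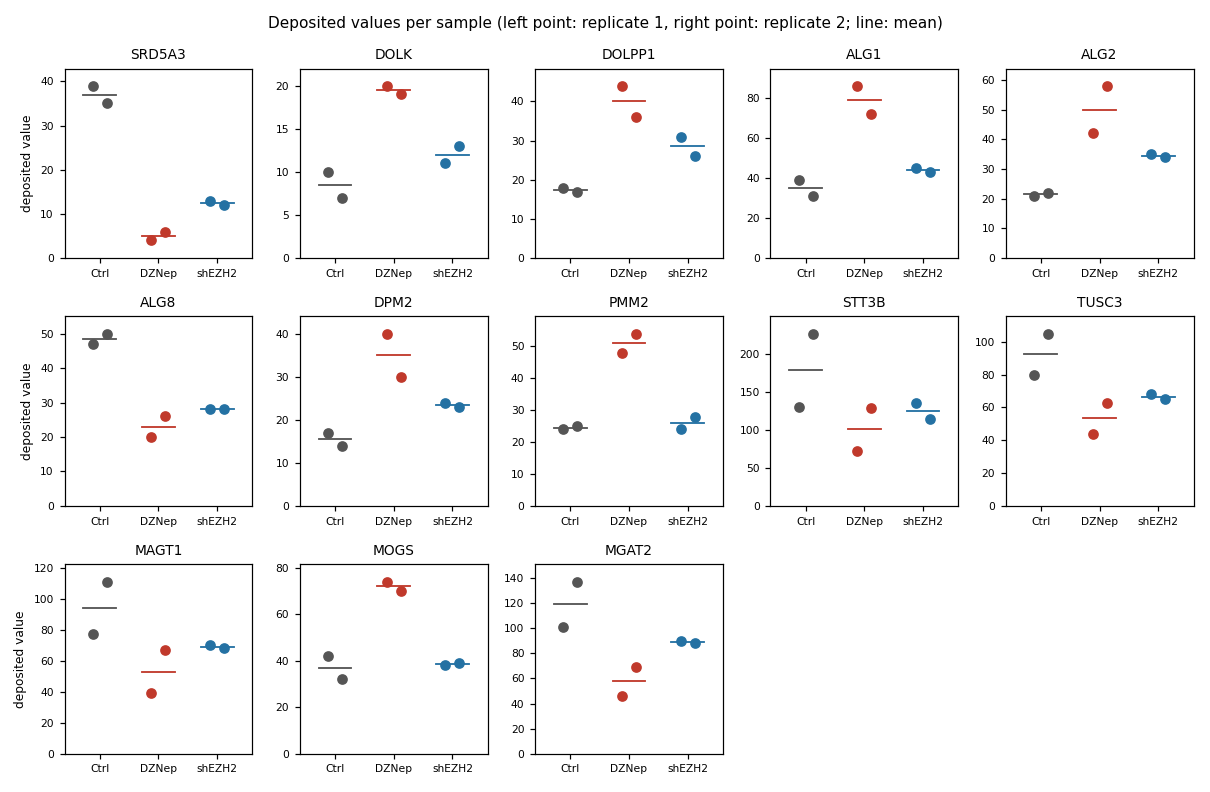
Deposited values per sample of SRD5A3 and the other members with an adjusted p under 0.05 and an absolute log2 fold change above 0.75 in a comparison with control. The left point of each pair is replicate 1, the right point replicate 2, the line their mean, and each panel has its own axis from 0. SRD5A3 fell from 39 and 35 to 4 and 6 with DZNep, while the replicates of STT3B, 131 and 227 in control, were far apart.

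The enzymes of the cytosolic face were higher with DZNep in 3 of 5 tested genes. DPAGT1 starts the glycan by adding GlcNAc phosphate to dolichyl phosphate, ALG13 and ALG14 add the next GlcNAc, and ALG1, ALG2 and ALG11 add the mannoses. ALG1 values were 39 and 31 in control, 86 and 72 with DZNep, and 45 and 43 with shEZH2. ALG2 values were 21 and 22, then 42 and 58, then 35 and 34. All DZNep values of both genes stood above every control and shEZH2 value. ALG1 rose with DZNep by 1.08 (SE 0.24, adjusted p = 0.0080 from limma) and ALG2 by 1.09 (SE 0.18, adjusted p = 0.0022). DPAGT1, at 19 and 18 in control and 35 and 30 with DZNep, rose by 0.71 (SE 0.22, adjusted p = 0.034). The DPAGT1 call held in 12 of 18 alternatives, was lost without control replicate 2 (adjusted p = 0.12), without DZNep replicate 1 (0.14), without either shEZH2 replicate (0.080 each) and with only the 2 groups fitted (0.079), and after a correction for transcript length and GC content the log2 fold change was 0.35 (0.046). With shEZH2, ALG2 was above control in both samples at 0.61 (adjusted p = 0.067), ALG1 was at 0.28 (0.47) and DPAGT1 at 0.13 (0.74), and none of these passed. ALG14, listed at 10 to 14, and ALG11, listed at 7 to 13, were not called.

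Of the 5 tested genes of luminal assembly, 1 was called lower with DZNep and none higher. ALG3, ALG9 and ALG12 add mannose, and ALG6, ALG8 and ALG10 add glucose in that order. ALG8 values were 47 and 50 in control, 20 and 26 with DZNep, and 28 and 28 with shEZH2. Every treated sample was below both controls. ALG8 fell with DZNep by 1.13 (SE 0.17, adjusted p = 0.0017 from limma), a call that held in each of the 18 alternatives, and with shEZH2 by 0.82 (SE 0.17, adjusted p = 0.029). The shEZH2 call was lost without control replicate 1 (adjusted p = 0.051) or 2 (0.071) and without shEZH2 replicate 1 (0.36) or 2 (0.30). ALG6, the preceding glucosyltransferase, had values of 10 and 19 in control, 7 and 10 with DZNep, and 11 and 10 with shEZH2, and did not pass (log2 fold changes -0.73 and -0.41, adjusted p = 0.056 and 0.34). ALG3, at 15 and 12 in control and 27 and 20 with DZNep, did not pass either (0.68, adjusted p = 0.073). ALG9 and ALG12 were not called. ALG10 and ALG10B are near-identical copies, whose assignment of reads is uncertain besides their low values.

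The dolichol-linked donors for the luminal steps are dolichyl phosphate mannose, made by DPM1 with its partners DPM2 and DPM3, and dolichyl phosphate glucose, made by ALG5, with MPDU1 needed for their use. DPM2 values were 17 and 14 in control, 40 and 30 with DZNep, and 24 and 23 with shEZH2, with no overlap between groups. DPM2 rose with DZNep by 1.05 (SE 0.26, adjusted p = 0.014 from limma) and was at 0.53 with shEZH2 (adjusted p = 0.22). The DZNep call was lost without control replicate 2 (adjusted p = 0.051) and without DZNep replicate 1 (0.057). DPM1, the catalytic subunit, had overlapping values of 46 and 60 in control and 32 and 57 with DZNep (log2 fold change -0.36, adjusted p = 0.23). DPM3, ALG5 and MPDU1 were not called in either comparison.

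Mannose reaches these donors through MPI, which makes mannose 6-phosphate, PMM2 and its paralog PMM1, which convert it to mannose 1-phosphate, and GMPPB with GMPPA, which make GDP-mannose. PMM2 is the gene most often affected in congenital disorders of glycosylation. Its values were 24 and 25 in control, 48 and 54 with DZNep, and 24 and 28 with shEZH2. The DZNep samples stood apart, and the shEZH2 samples overlapped control. PMM2 rose with DZNep by 0.96 (SE 0.18, adjusted p = 0.0047 from limma), whereas the log2 fold change with shEZH2 was 0.03 (adjusted p = 0.93), a value whose sign changed in 4 of the 18 alternatives. PMM1, at 35 to 53 in all samples, overlapped between groups (log2 fold change with DZNep -0.12, adjusted p = 0.78). MPI, at 74 and 54 in control and 44 and 42 with DZNep, did not pass (-0.62, adjusted p = 0.065), and GMPPA and GMPPB were not called.

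The oligosaccharyltransferase has 2 catalytic forms. STT3A works beside the translocon, with OSTC as one of its own subunits, and STT3B works with either TUSC3 or MAGT1, which are oxidoreductases. RPN1, RPN2, DDOST, DAD1 and OST4 are shared. STT3B values were 131 and 227 in control, 73 and 129 with DZNep, and 135 and 115 with shEZH2. TUSC3 values were 80 and 105, then 44 and 63, then 68 and 65. MAGT1 values were 77 and 111, then 39 and 67, then 70 and 68. In all 3, each DZNep replicate was below both controls, for STT3B only narrowly. With DZNep STT3B fell by 0.89 (SE 0.26, adjusted p = 0.027 from limma), TUSC3 by 0.86 (SE 0.18, adjusted p = 0.0065) and MAGT1 by 0.91 (SE 0.22, adjusted p = 0.013). The calls of STT3B and MAGT1 were lost without control replicate 2 (adjusted p = 0.12 and 0.052), without DZNep replicate 1 (0.12 and 0.052) and for the values as deposited (0.12 and 0.068), whereas TUSC3 kept its call in all 18 alternatives. RPN2, at 317 and 334 in control and 232 and 271 with DZNep, fell by 0.45 (SE 0.15, adjusted p = 0.041), a call that held in 8 of 18 alternatives and was lost without any 1 of the 6 samples (adjusted p = 0.081 to 0.16), with the values as deposited (0.060) and without the intensity trend (0.064).

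STT3A, in contrast, had values of 182 and 178 in control and 206 and 221 with DZNep, and its log2 fold change of 0.17 did not pass (SE 0.16, adjusted p = 0.41). OSTC, at 35 and 49 in control and 40 and 58 with DZNep, overlapped between groups (0.14, adjusted p = 0.58). RPN1 ranged from 632 to 708 over all 6 samples. DDOST, DAD1 and OST4 were not called. The ratio of the deposited value of STT3A to that of STT3B was 1.39 and 0.784 in control, 2.82 and 1.71 with DZNep, and 1.45 and 1.56 with shEZH2. Both DZNep ratios were thus above both control ratios, as were both shEZH2 ratios, the lowest of them narrowly, while the ratio of TUSC3 to MAGT1 stayed between 0.94 and 1.13 in all samples. Whether STT3B changed more than STT3A was not tested. With shEZH2 none of the 10 subunits was called by limma, and RPN2 and TUSC3 were the 2 at an unadjusted p under 0.05, both lower. The values of STT3B, TUSC3 and MAGT1 were -0.51, -0.51 and -0.47 on the log2 scale (adjusted p = 0.24, 0.11 and 0.21). With the replicate number as a block, STT3B, TUSC3, MAGT1 and RPN2 were called lower in limma (adjusted p = 0.027, 0.029, 0.048 and 0.043). That setting called 14.1% of all genes lower, and the replicate differences of shEZH2 did not follow those of control (correlation -0.02).

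In trimming and early branching, 2 of 5 genes were called with DZNep, in opposite directions. MOGS is the glucosidase that removes the outermost glucose, GANAB is the catalytic subunit of glucosidase II, MAN1B1 is an ER mannosidase, and MGAT1 and MGAT2 add the branching GlcNAc residues in the Golgi. MOGS values were 42 and 32 in control, 74 and 70 with DZNep, and 38 and 39 with shEZH2. MGAT2 values were 101 and 137, then 46 and 69, then 90 and 88. The DZNep samples were all above the others for MOGS and all below the others for MGAT2. MOGS rose with DZNep by 0.88 (SE 0.23, adjusted p = 0.016 from limma) and MGAT2 fell by 1.12 (SE 0.19, adjusted p = 0.0025). The MOGS call was lost without control replicate 2 (adjusted p = 0.072) and without DZNep replicate 1 (0.069). With shEZH2, MOGS was at 0.02 (adjusted p = 0.96), a sign that changed in 4 alternatives, and MGAT2 at -0.45 (adjusted p = 0.16). MGAT1, at 146 and 132 in control and 210 and 177 with DZNep, did not pass (0.40, adjusted p = 0.16). The ratio of MGAT1 to MGAT2 was 1.45 and 0.964 in control, 4.57 and 2.57 with DZNep, and 2.04 and 2.0 with shEZH2, so that neither treated group overlapped control. GANAB and MAN1B1 were not called.

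A direct comparison of the treated groups asked which members differed between the DZNep and shEZH2 samples. Of the 40, SRD5A3 was called higher and PMM2 lower with shEZH2 than with DZNep, beside 4.88% and 4.42% of all genes. SRD5A3 differed by 1.21, or 2.31-fold (SE 0.21, adjusted p = 0.016 from limma), and PMM2 by -0.92 (SE 0.18, adjusted p = 0.023). Both calls were lost when either shEZH2 sample was left out (adjusted p = 0.18 and 0.15 for SRD5A3, 0.34 and 0.18 for PMM2), and that of PMM2 also without DZNep replicate 1 (0.053). By the rule of an unadjusted p under 0.05 with an absolute log2 fold change above 1, SRD5A3 passed as higher (3.42% of all genes did) and no member as lower (2.1%). Without overlap, 11 members were higher with shEZH2 than with DZNep and 15 lower (29.5% and 31.3%). For MOGS, ALG1 and MGAT2, the differences of -0.86, -0.80 and 0.67 did not pass (adjusted p = 0.052, 0.071 and 0.060), though they passed in 7, 8 and 7 of the 18 alternatives.

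The 2 replicates of the control and DZNep groups differed along the GC content of the transcripts. Over the 40 members, the Spearman correlation of GC content with the log2 difference of replicate 2 from replicate 1 was -0.84 in control, -0.84 with DZNep and 0.33 with shEZH2, and over the 9027 tested genes with a GC value it was -0.77, -0.82 and 0.04. The fold changes of the members also followed GC content, with correlations of 0.61 for DZNep and 0.64 for shEZH2 (0.25 and 0.36 over all genes). These points share the same libraries and are given as descriptions. The 8 members called higher with DZNep had a median GC content of 54.4%, the 7 called lower 42.8%, and the 25 not called 51.3%, beside 48.4% for all genes. After each library was corrected for transcript length and GC content, all 8 and all 7 calls stood, and 7 further members were called higher and 4 lower. Calls rose over all genes as well under this correction, from 22.4% to 29.3% higher and from 20.4% to 29.4% lower, beside 15 and 11 of the 40 members. Those called higher besides were NUS1, ALG11, ALG3, DPM3, OST4, OSTC and MAN1B1, and those called lower besides were MPI, PMM1, RPN1 and GANAB. After correction, STT3B, TUSC3 and MAGT1 were at -0.63, -0.56 and -0.60 (adjusted p = 0.0024, 0.0068 and 0.0011), and STT3A at 0.31 (adjusted p = 0.18). With shEZH2, SRD5A3 and ALG8 remained called lower, RPN2 was called lower besides (-0.54, adjusted p = 0.0066) and ALG2 higher (0.68, adjusted p = 0.0044). Of all genes, 13.9% were then called higher and 16.7% lower with shEZH2. The part of GC content in the remaining differences was not tested.

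**Figure D3:**
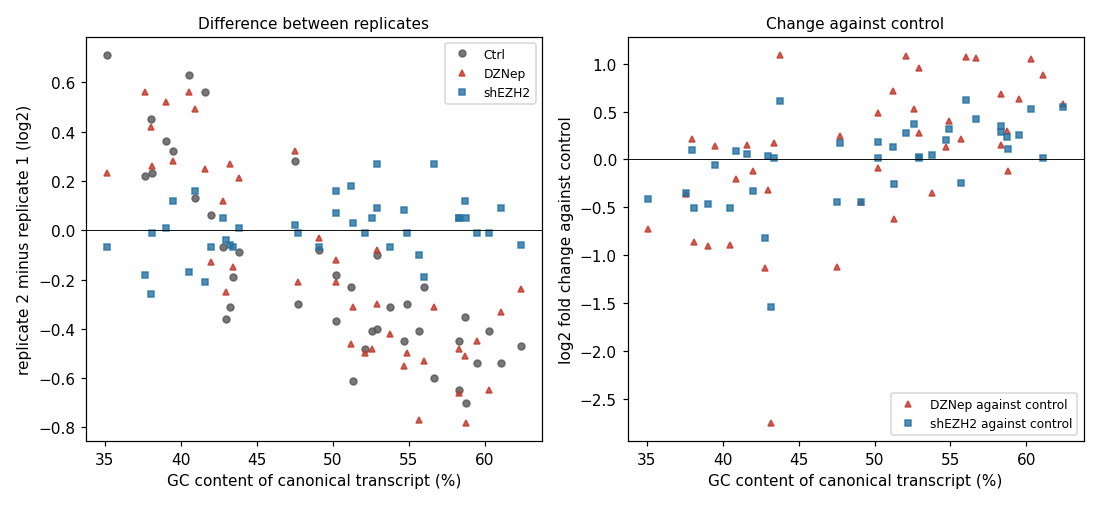
GC content of the canonical transcript of the 40 members (horizontal axis, in percent) against the log2 difference between replicate 2 and replicate 1 of each group (left) and against the log2 fold change from control (right). In the left panel the control and DZNep points slope downwards (Spearman -0.84 each) and the shEZH2 points stay near 0, and in the right panel both treated groups slope upwards (0.61 and 0.64).

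The exons of 14 of the 43 members overlap those of another gene in the matrix, so part of their values may belong to these genes. The libraries were made with a kit that keeps strand, and the sources do not say whether the counting used it. On the same strand, where strand cannot separate them, STT3A overlaps CHEK1, ALG11 overlaps UTP14C and DDOST overlaps PINK1-AS. On the opposite strand, PMM2 overlaps CARHSP1 and TMEM186, ALG1 overlaps EEF2KMT and NAGPA, and DPAGT1 overlaps C2CD2L.

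Neighbouring pathways were examined with lists of their own, for which the shares of all genes called (22.4% higher and 20.4% lower with DZNep, 3.91% and 4.53% with shEZH2) are the background. Isoprenoid precursors come from the mevalonate route, and of 8 tested genes of that supply, 4 were called lower with DZNep and 2 with shEZH2, and none was called higher. The median log2 fold change with DZNep was -0.53, and the other 4 did not pass. IDI1, which isomerises isopentenyl diphosphate, had values of 200 and 301 in control, 28 and 55 with DZNep, and 100 and 89 with shEZH2. The groups did not overlap, and IDI1 fell by 2.68 on the log2 scale with DZNep (limma, adjusted p = 0.00027) and by 1.42 with shEZH2 (adjusted p = 0.020). HMGCS1, a synthase of the mevalonate route, fell in both, with log2 fold changes of -1.92 (adjusted p = 0.00057) and -0.92 (adjusted p = 0.046). In the sterol branch, which competes for the same farnesyl diphosphate, 6 of 11 were called lower with DZNep and 3 with shEZH2, none higher. Of the 6, HSD17B7 passed the filter on low values through its control samples alone, and without it 5 of 10 were lower with DZNep. MSMO1, a sterol methyl oxidase, fell by 1.99 and 1.11 (adjusted p = 0.00032 and 0.020).

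Of 4 tested relatives of SRD5A3 and polyprenol enzymes, 4 were called lower with DZNep and 2 with shEZH2. PDSS2 passed the filter through its control samples alone, where it was high. The remaining 3 are SRD5A1, COQ2 and TECR, of which 3 were called lower with DZNep and 2 with shEZH2. SRD5A1, the steroid 5-alpha-reductase type 1, had values of 29 and 32 in control, 2 and 4 with DZNep, and 10 and 10 with shEZH2. The groups stood in the same order as for SRD5A3. In limma, SRD5A1 fell by 3.09 with DZNep (SE 0.23, adjusted p = 9.4e-05), and by 1.56 with shEZH2 (SE 0.23, adjusted p = 0.014), beside 2.75 and 1.54 for SRD5A3. COQ2 and PDSS2, which act on the polyprenyl chain of ubiquinone, fell by 1.77 and 1.34 with DZNep (adjusted p = 0.00049 and 0.0037), and COQ2 was also lower with shEZH2, at -0.86 (adjusted p = 0.040). TECR, which reduces enoyl-CoA in fatty acid elongation, was at -0.55 with DZNep (adjusted p = 0.045) and 0.43 with shEZH2 (adjusted p = 0.18). The supply of UDP-GlcNAc, the sugar used by DPAGT1, was called lower in 4 of 7 genes with DZNep and in 1 with shEZH2, none higher. GFPT1, an isoform of the enzyme at the entry of the hexosamine route, fell by 1.24 with DZNep (adjusted p = 0.0032) and was at -0.21 with shEZH2 (adjusted p = 0.57), and GFPT2, the other isoform, fell in both, by 1.07 and 1.36 (adjusted p = 0.0059 and 0.015).

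Downstream, genes that fold and dispose of glycoproteins in the ER were called lower in 6 and higher in 3 of 14 tested with DZNep, and lower in 1 with shEZH2. ERLEC1, a lectin of ER-associated degradation, had values of 34 and 48 in control, 7 and 15 with DZNep, and 22 and 21 with shEZH2, and fell with DZNep by 1.94 (adjusted p = 0.0012 from limma). EDEM1, which marks misfolded glycoproteins for disposal, fell by 1.41 (adjusted p = 0.0022), and UGGT1, the folding sensor that adds glucose back, by 1.29 (adjusted p = 0.00083). In the unfolded protein response, 3 of 17 genes were called higher and 4 lower with DZNep, and 3 higher and none lower with shEZH2. PPP1R15A, a phosphatase subunit that reverses translational arrest, rose in both, by 1.65 and 1.32 (adjusted p = 0.00071 and 0.014). TRIB3, a target of the ATF4 arm, had values of 52 and 40 in control, 54 and 39 with DZNep, and 107 and 116 with shEZH2, and rose with shEZH2 by 1.22 (adjusted p = 0.036). HSP90B1, an ER chaperone, fell with DZNep by 1.26 (adjusted p = 0.010). HSPA5, the chaperone BiP, chosen for mention after its values were seen, was not called in either comparison (0.05 and 0.59, adjusted p = 0.84 and 0.063). Of 9 tested Golgi mannosidase and branching genes, 2 were called higher and none lower with DZNep, ST3GAL4, a sialyltransferase, by 1.19 (adjusted p = 0.0065), and ST6GAL1, which passed the filter through its DZNep samples alone, where it was high.

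**Figure D4:**
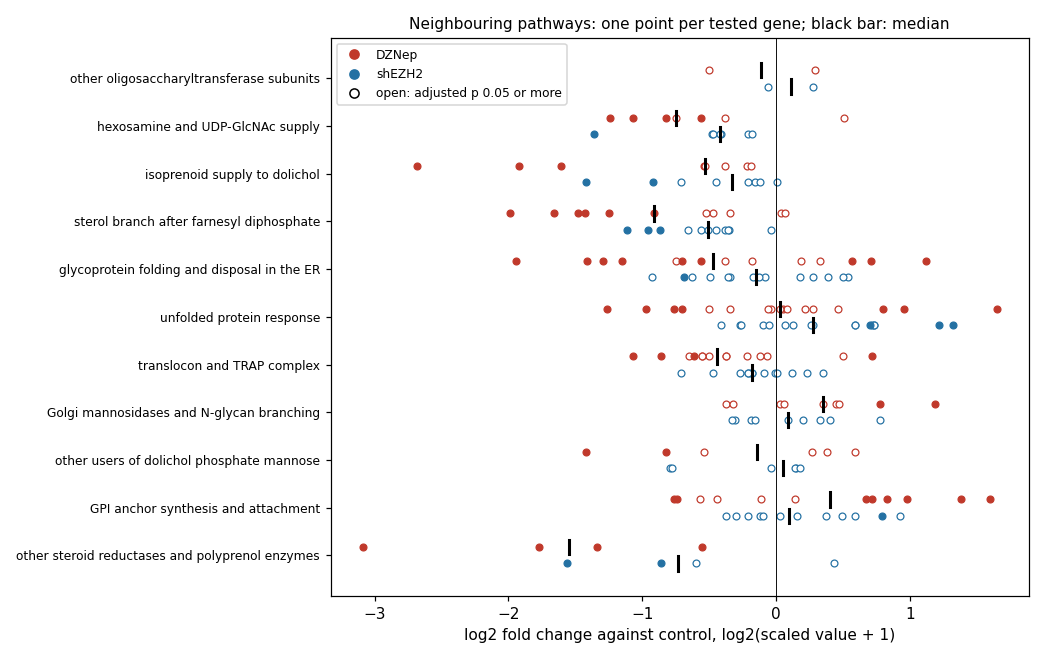
Log2 fold change against control of the tested genes of 11 neighbouring lists, with DZNep in red and shEZH2 in blue, 1 point per gene and a black bar at the median. Filled points had an adjusted p under 0.05 in limma, and with DZNep all 4 filled points of isoprenoid supply, all 6 of the sterol branch and all 4 of the other steroid reductases and polyprenol enzymes lie below 0. Among these, HSD17B7 of the sterol branch and PDSS2 of the last list passed the filter on low values through their control samples alone. They could thus enter only where control was high.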

How the data were processed

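RNA from 6 OVCAR8 samples (2 control, 2 DZNep, 2 shEZH2) was sequenced. The submitters' processing notes name fastp, STAR, RSEM and GRCh38, and the methods name edgeR. The deposited matrix holds scores: whole numbers scaled by the authors to about the same total in every sample, by a procedure not given in the sources used here. The deposit calls them counts, but they are not raw counts, so no count model was used. No column of per-sample values was left unused (0). Values were scaled by TMM factors (log ratios trimmed by 30%, means by 5%), genes with a value of 10 or more in 2 or more samples were kept, 1 was added and log2 taken. One limma model (version 3.58.1, R 4.3.3, trended variance) was fitted to all 6 samples, with Benjamini-Hochberg adjustment. Depth is unknown, so no counting interval is given. The script was tested on simulated data. Alternatives were other scaling, filters, pseudocounts, models and leaving out each sample. A correction by lowess (span 0.3) on transcript length and GC content, known for 93.3% of tested genes (GENCODE 44), was added after the data were seen.

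The members and lists were chosen with earlier results of these data known. Full values are given for SRD5A3 and for members with an adjusted p under 0.05 and an absolute log2 fold change above 0.75 in a comparison with control, and from each neighbouring list at most 3 genes per comparison with an adjusted p under 0.05 and an absolute log2 fold change above 1, of which 1 is not reported here. Promoter sequences are from RefSeq (GRCh38.p14), of which 38 of 43 members had an entry. Without an entry were ALG10, STT3B, RPN1, TUSC3 and MOGS.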

Additional observations from a re-analysis of the deposited data

Results flagged for a closer look

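For 2 of the 40 tested members the change differed between the treated groups, by the test of the difference itself in limma. Of the 40, 1 was called higher and 1 lower with shEZH2 than with DZNep, beside 4.88% and 4.42% of all genes. SRD5A3, which acts where dolichol is made from polyprenol, was higher with shEZH2 than with DZNep by 1.21 on the log2 scale (adjusted p = 0.016 from limma). Both shEZH2 samples (13 and 12) were above both DZNep samples (4 and 6), and all 4 were below control. PMM2, the phosphomannomutase, was at -0.92 with shEZH2 relative to DZNep (adjusted p = 0.023), with both shEZH2 samples (24 and 28) below both DZNep samples (48 and 54). The SRD5A3 call held in 15 of the 18 alternatives and the PMM2 call in 14. Groups of 2 samples are too small to be checked for an outlying sample.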

How the results depend on the processing

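The DZNep calls of SRD5A3, DOLPP1, ALG1, ALG2, ALG8, PMM2, TUSC3 and MGAT2 kept their direction and stayed under the threshold in all 18 alternatives tried. When 1 sample was left out, the shares of all genes called moved as well. Without either shEZH2 sample, most calls over all genes were lost with shEZH2 and in the direct comparison. Losing such a call there, as SRD5A3, ALG8, PMM2 and EZH2 did, therefore does not set a gene apart. Leaving out a sample leaves 1 in its group, which is then assumed to vary like the others. This gave 4 to 13 members called higher and 4 to 7 lower with DZNep, 0 to 1 higher and 0 to 2 lower with shEZH2, and 0 to 2 higher and 0 to 3 lower for shEZH2 against DZNep. The 4 higher came without control replicate 2 or DZNep replicate 1, and the 13 without control replicate 1. Values as deposited gave 14 higher and 4 lower with DZNep and 1 higher and 3 lower in the direct comparison. At an absolute log2 fold change above 1 with an unadjusted p under 0.05, 5 were higher and 3 lower with DZNep, 1 lower with shEZH2, and 1 higher and 0 lower in the direct comparison, whose count of 0 compares with 1 by the adjusted p. Fitting the 2 groups compared alone gave 1 member higher with shEZH2 (8.01% of all genes), and 2 higher and 3 lower in the direct comparison (7.7% and 7.2%). The shEZH2 samples differed from each other with an SD of 0.14 on the log2 scale, against 0.43 and 0.45 in control and DZNep, and without counts this could not be set against sampling noise. Averaged and counted as 1, they left SRD5A3 at -1.54 with shEZH2 and ALG8 at -0.82. The calls of the members with shEZH2 and in the direct comparison were then lost, as were most of those over all genes. The correction for length and GC content gave 15 higher and 11 lower with DZNep, 1 higher and 3 lower with shEZH2, and 6 higher and 8 lower in the direct comparison. The shares of all genes were then 29.3% and 29.4%, 13.9% and 16.7%, and 17.3% and 16.1%.

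Replicate numbers did not pair all groups: deviations from the group means correlated at 0.79 between control and DZNep, and at -0.02 and -0.04 between these and shEZH2. Leaving out 1 control or DZNep sample therefore also unbalances the difference that these 2 groups share. With the replicate number as a block, 14 were higher and 9 lower with DZNep, 3 and 6 with shEZH2, and 2 and 5 in the direct comparison, beside 28.2% and 27.8%, 14.5% and 14.1%, and 14.0% and 12.6% of all genes. The DZNep calls of DOLK, DPAGT1, DPM2, STT3B, MAGT1 and MOGS stood with this block (limma, adjusted p = 7.8e-05, 0.0032, 2.5e-05, 3.6e-05, 2.7e-05 and 9.2e-05). With the block and the correction, the counts were 16 and 12, 3 and 4, and 8 and 9, beside 32.1% and 32.2%, 18.4% and 21.2%, and 21.7% and 20.1% of all genes. The log2 fold change with shEZH2 changed sign for PMM2 (-0.18 with the correction, with and without the block, -0.02 without control replicate 2, -0.10 without shEZH2 replicate 2) and MOGS (-0.21, -0.25 and -0.02), the values without 1 sample reaching from -0.10 to 0.17 and from -0.25 to 0.29, none past the threshold. The cause of the changes between settings was not tested. DOLK had no value under a filter of 20 or more, which left 34 members. With unknown depth, small values such as those of DOLK, ALG6 and ALG11 are known only to the rounding step.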

Other observations

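Other routes that share the ER membrane or the dolichol-linked mannose donor were measured as well. For each of these lists the background is the share of all genes called. It was 22.4% higher and 20.4% lower with DZNep, and 3.91% and 4.53% with shEZH2. Whether the lists differed from it was not tested. Glycosylphosphatidylinositol anchors take their mannoses from dolichyl phosphate mannose, and of 12 tested genes of anchor synthesis and attachment, 6 were called higher and 2 lower with DZNep and 1 higher with shEZH2 (limma, adjusted p under 0.05). One of the 6, PIGW, passed the filter on low values through its DZNep samples alone, and without it 5 of 11 were higher. PIGC, a subunit of the enzyme that starts the anchor, had values of 15 and 15 in control, 47 and 53 with DZNep, and 28 and 27 with shEZH2. PIGC rose by 1.6 with DZNep (adjusted p = 0.00045) and by 0.79 with shEZH2 (adjusted p = 0.035). PIGL, the de-N-acetylase of the following step, rose with DZNep by 1.38 (adjusted p = 0.0044).

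A further list held genes that use dolichyl phosphate mannose or resemble such enzymes, among them PIGV of the anchor route, which the 12 above leave out. Of its 6 tested genes, 2 were called lower with DZNep (20.4% of all genes) and none with shEZH2. DPY19L4, a member of the family of C-mannosyltransferases, had values of 29 and 61 in control and 12 and 21 with DZNep and fell by 1.42 (adjusted p = 0.0086). Of 14 genes of the translocon and its partner complexes, 4 were called lower and 1 higher with DZNep and none with shEZH2. Their log2 fold changes with DZNep had a median of -0.44. SPCS3, a subunit of the signal peptidase, fell by 1.07 (adjusted p = 0.021), from 127 and 236 to 62 and 120. Neither of the 2 further oligosaccharyltransferase subunits was called.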
